A study of Homo sapiens with 9 samples.

Results

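The mitotic genes described here were 32 genes whose proteins condense chromosomes, build the spindle, hold the spindle checkpoint and divide the cell. They were picked by name, as rows of the deposited count table whose symbol matched a list of 32 known mitotic genes, out of 16222 genes in the table. All 32 were found, and all 32 had enough counts to be tested. Messenger RNA was sequenced from THP-1 cells, an established human monocytic leukaemia line, in 9 libraries of 3 groups, 3 libraries each. The LPS_ABS group was treated with PMA, LPS and ABS, the LPS group with PMA and LPS, and the control group with PMA and PBS. PMA is a phorbol ester that makes THP-1 cells adhere and take on macrophage features, so all 9 libraries share it, and none came from cells without PMA. LPS is the lipopolysaccharide of Gram-negative bacteria. No label says what ABS stands for; the title of the series mentions apoptotic bodies. The sources used here give neither doses nor times. THP-1 is 1 leukaemia line grown in culture. Since no label ties the libraries of a group to separate cultures, p-values reflect the spread of these 9 libraries alone, which may be technical.

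Cells enter mitosis when CDK1 bound to a B-type cyclin becomes active, and the Aurora and Polo kinases carry the program through spindle assembly. The spindle checkpoint keeps CDC20 from activating the anaphase-promoting complex until every kinetochore is attached. That complex then marks securin and cyclin B for destruction, and the cell divides. Most of these genes are transcribed in G2 and mitosis, through a promoter element called the cell cycle genes homology region (CHR), bound by the DREAM and MuvB complexes, and through CCAAT boxes, bound by NF-Y. In resting cells DREAM holds them low, and MYBL2 and FOXM1 join MuvB to raise them. PMA is known to slow the growth of THP-1 cells, which is why the levels are given before the differences.

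Total counts ranged from 38506162 to 41679412 per library. The 15 monocyte and macrophage markers examined were all in the table, 14 of them above 1 FPKM in every group, and their summed level was 1698 to 1847 FPKM in LPS_ABS libraries, 1579 to 1728 FPKM in LPS libraries and 1436 to 1502 FPKM in controls. Of the markers of other cell types, those of T cells, fibroblasts and chondrocytes each summed to at most 1.04 FPKM per library, those of epithelial cells to at most 2.15 FPKM and those of B cells to at most 7.74 FPKM. The endothelial sum was 29.7 to 48.8 FPKM and came almost wholly from PECAM1, which myeloid cells also express. The libraries of the LPS_ABS group stood apart in a trend with transcript GC content. Set against the mean of the 9 libraries, log2 counts changed per 10 GC points by 0.31 ± 0.07 in LPS_ABS libraries (SD, n = 3), against -0.15 ± 0.14 in LPS libraries and -0.16 ± 0.02 in controls. All 3 LPS_ABS libraries had a positive slope (0.23 to 0.37) and all 6 others a negative one, so this trend and the ABS treatment cannot be told apart by leaving libraries out. Fold changes were therefore tested with edgeR on the counts and again after a GC correction. In it, each library's trend of counts on GC content entered the model as an offset. A fold change or median given alone, and not said to be corrected, is from before the correction and may differ after it. The normalised counts per library (CPM, counts scaled to library size by TMM) are as before that correction. The mitotic genes ranged from 35.3% GC (CENPE) to 57.9% GC (CDC20), with a median of 43.2%, against a median of 49.2% over the genes tested.

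Mitotic mRNA was present in every library. The 32 genes together took 0.404, 0.401 and 0.406% of all counts in LPS_ABS libraries, 0.485, 0.416 and 0.379% in LPS libraries and 0.454, 0.451 and 0.456% in controls. The LPS_ABS libraries all lay below the controls, and the LPS libraries spread over both. These shares, and the FPKM below, carry no GC correction, and the 32 genes are poorer in GC than the genes tested. With LPS_ABS against controls their median log2 fold change was -0.27 before that correction and -0.046 after it. In bulk RNA, fewer cells in mitosis and less mitotic mRNA per cell cannot be told apart, nor either from the GC trend of the LPS_ABS libraries. LPS 1 was the highest of its group for 30 of the 32 genes and LPS 3 the lowest for 24, so the LPS group spread along 1 direction, whereas controls 1, 2 and 3 were the highest for 15, 5 and 12 genes. LPS 1 also had the most negative GC slope of its group (-0.31 per 10 GC points, against -0.024 in LPS 2 and -0.12 in LPS 3). In FPKM, which is per transcript length, the median mitotic gene stood at 19.4 FPKM in LPS_ABS libraries, 23.8 FPKM in LPS libraries and 27.9 FPKM in controls, at the 80.7th, 83.8th and 85.4th percentile of all genes in the table. The gene with the highest level was CDC20, the activator of the anaphase-promoting complex, with 714 ± 40.2 FPKM in LPS_ABS libraries, 619 ± 73.4 in LPS libraries and 677 ± 31.0 in controls (SD, n = 3 each). It alone supplied 23.2 to 30.9% of the counts of the 32 genes. Without it the share of all counts was 0.286 ± 0.00606% in LPS_ABS libraries, 0.325 ± 0.0417% in LPS libraries and 0.342 ± 0.00722% in controls. The lowest was ASPM, a spindle pole protein, with 1.35 ± 0.50 FPKM in LPS_ABS libraries, 2.94 ± 0.66 in LPS libraries and 2.61 ± 0.18 in controls. As many as 30, 32 and 31 of the 32 genes lay above the median gene of the table in LPS_ABS, LPS and control means.

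**Figure D1:**
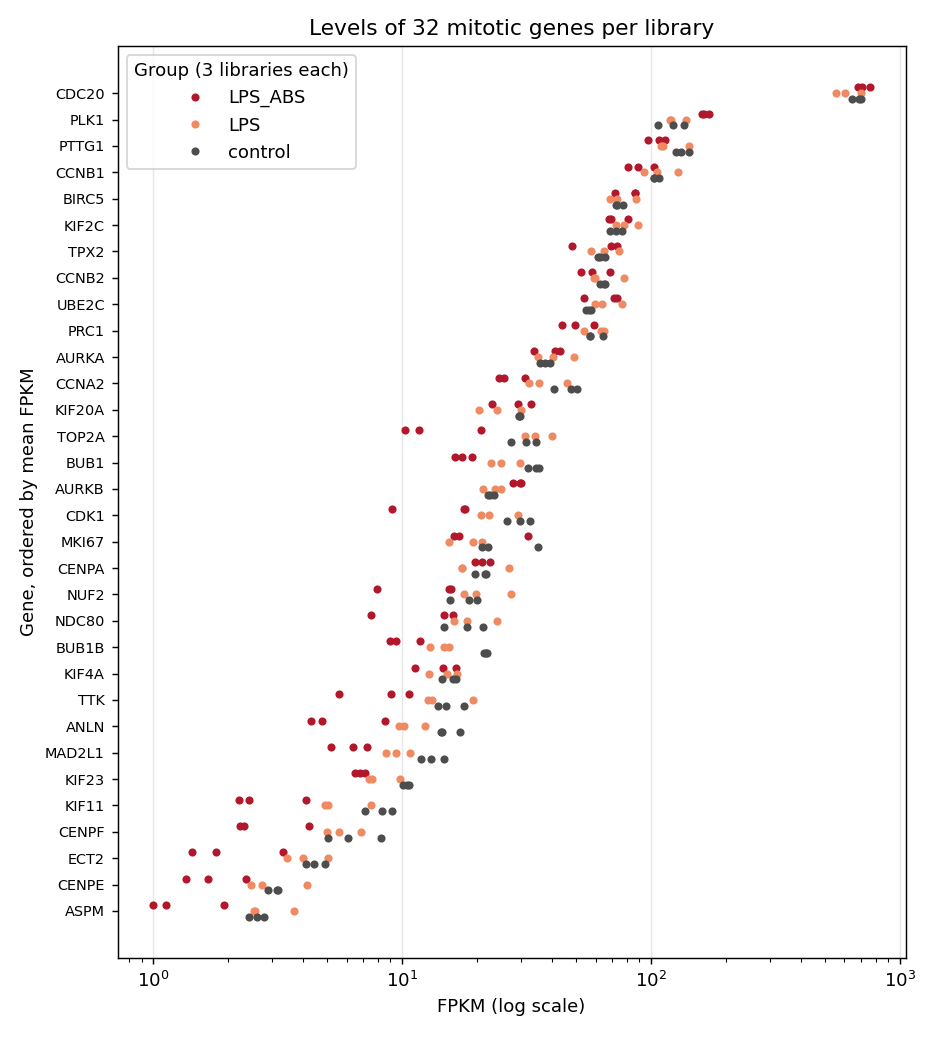
FPKM of each of the 32 mitotic genes in each of the 9 libraries, on a log scale, with LPS_ABS above LPS above control within each gene and genes ordered by their mean. CDC20 lies alone at the top, at 553 to 758 FPKM, and the LPS_ABS points of ASPM, CENPE, ECT2, CENPF, KIF11, ANLN and TOP2A lie left of both other groups on average.

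Of the 32 genes, 27 had a promoter in the RefSeq promoter table (GRCh38.p14, 250 bases before to 50 after the start, the first start listed per gene). A CHR, searched as TTTGAA or TTCGAA on both strands, was in 20 of these 27 promoters (74.07%), against 16.62% of all 27305 promoters of the table. TTCAAA is TTTGAA read from the other strand. A CCAAT box, searched as CCAAT on both strands, was in 21 of the 27 (77.78%), against 35.7% of all promoters, and both elements were in 16 (59.26%), against 6.581%. The letters GCGGGAA, 1 form of an E2F site, on both strands, were in 1 of the 27 (3.704%), against 6.563% of all promoters. The 8 promoters printed here are those of the 5 genes called lower in an LPS_ABS comparison after the GC correction, and of PLK1, AURKB and CDC20, the 3 genes called higher before it. Capitals mark each CHR of the searched forms and each CCAAT box, where a box read from the other strand is ATTGG. In the promoter table BUB1 lies at chr2:110678014-110678313 (minus strand), BUB1B at chr15:40160819-40161118 (plus strand), KIF11 at chr10:92592880-92593179 (plus strand), ANLN at chr7:36389612-36389911 (plus strand), TOP2A at chr17:40417847-40418146 (minus strand), PLK1 at chr16:23678639-23678938 (plus strand), AURKB at chr17:8210176-8210475 (minus strand) and CDC20 at chr1:43358731-43359030 (plus strand).
BUB1: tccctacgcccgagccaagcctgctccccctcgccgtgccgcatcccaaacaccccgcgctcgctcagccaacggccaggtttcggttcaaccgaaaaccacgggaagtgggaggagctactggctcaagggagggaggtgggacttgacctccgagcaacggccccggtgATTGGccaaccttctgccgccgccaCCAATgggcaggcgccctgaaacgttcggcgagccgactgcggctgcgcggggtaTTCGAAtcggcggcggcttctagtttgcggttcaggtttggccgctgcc
BUB1B: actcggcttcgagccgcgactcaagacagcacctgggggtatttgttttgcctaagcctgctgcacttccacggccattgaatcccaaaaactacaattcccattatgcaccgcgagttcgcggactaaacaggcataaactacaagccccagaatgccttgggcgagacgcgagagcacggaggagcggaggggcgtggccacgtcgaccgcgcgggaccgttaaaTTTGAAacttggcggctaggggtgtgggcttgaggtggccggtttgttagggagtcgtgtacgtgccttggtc
KIF11: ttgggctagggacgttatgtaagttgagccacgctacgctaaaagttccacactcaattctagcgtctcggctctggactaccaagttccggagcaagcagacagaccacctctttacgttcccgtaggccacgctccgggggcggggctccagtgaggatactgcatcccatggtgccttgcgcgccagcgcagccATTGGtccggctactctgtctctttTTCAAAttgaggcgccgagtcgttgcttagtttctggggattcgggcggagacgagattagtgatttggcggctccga
ANLN: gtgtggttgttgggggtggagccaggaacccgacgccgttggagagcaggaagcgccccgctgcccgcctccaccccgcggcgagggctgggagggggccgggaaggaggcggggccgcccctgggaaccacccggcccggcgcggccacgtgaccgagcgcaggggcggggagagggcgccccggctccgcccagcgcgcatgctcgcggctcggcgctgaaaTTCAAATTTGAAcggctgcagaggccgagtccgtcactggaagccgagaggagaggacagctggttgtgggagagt
TOP2A: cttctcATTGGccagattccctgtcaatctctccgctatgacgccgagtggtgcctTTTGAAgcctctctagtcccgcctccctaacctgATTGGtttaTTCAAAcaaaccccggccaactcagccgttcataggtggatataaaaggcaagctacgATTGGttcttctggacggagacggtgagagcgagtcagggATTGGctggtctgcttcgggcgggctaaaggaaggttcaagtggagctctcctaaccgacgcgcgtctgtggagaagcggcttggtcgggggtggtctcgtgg
PLK1: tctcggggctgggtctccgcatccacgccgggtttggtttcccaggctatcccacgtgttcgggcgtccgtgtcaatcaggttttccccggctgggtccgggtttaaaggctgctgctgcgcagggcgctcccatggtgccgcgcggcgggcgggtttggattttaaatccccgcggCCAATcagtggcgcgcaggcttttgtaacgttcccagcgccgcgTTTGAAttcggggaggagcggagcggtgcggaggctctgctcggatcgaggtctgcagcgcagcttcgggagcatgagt
AURKB: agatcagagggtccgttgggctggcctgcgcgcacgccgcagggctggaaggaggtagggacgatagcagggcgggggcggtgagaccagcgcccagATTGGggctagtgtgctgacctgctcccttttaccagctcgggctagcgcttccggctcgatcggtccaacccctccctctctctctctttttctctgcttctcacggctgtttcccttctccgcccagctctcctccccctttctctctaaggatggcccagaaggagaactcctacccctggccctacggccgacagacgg
CDC20: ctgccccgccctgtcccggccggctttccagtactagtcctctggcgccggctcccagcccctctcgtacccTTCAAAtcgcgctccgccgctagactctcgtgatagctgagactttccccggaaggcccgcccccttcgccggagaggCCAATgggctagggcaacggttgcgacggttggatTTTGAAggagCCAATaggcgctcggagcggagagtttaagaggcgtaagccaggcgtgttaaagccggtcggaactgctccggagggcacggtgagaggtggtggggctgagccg
Of these 8 windows, all but that of AURKB hold a CHR of the searched forms. It begins at positions from -29 to -20 relative to the start in BUB1B, KIF11, ANLN and PLK1. Other starts were not searched, so a CHR or CCAAT box near another start of AURKB would be missed. Other forms of the CHR were not searched either, so a window without a match may still hold one. BUB1B and ANLN hold no CCAAT in this window, TOP2A holds 4, CDC20 and BUB1 hold 2 each and AURKB holds 1. Of the other genes called before the correction, CCNA2 and CENPE, both lower, also have no CHR of the searched forms in this window, and CENPE has no CCAAT either. A match is a run of letters in this window and says nothing of whether a factor was bound.

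With LPS against controls 1 mitotic gene, of the spindle checkpoint, passed the test. Of the 32 genes, 0 rose and 1 fell in LPS libraries against controls by edgeR's quasi-likelihood test at an adjusted p under 0.05, whereas 7.71% of all 12970 genes tested rose and 7.19% fell. At an unadjusted p under 0.05, 0 were higher and 4 lower, and DESeq2 and limma-voom also called 0 higher. The median log2 fold change was -0.015, and -0.025 over all genes tested. The gene that fell was BUB1B, which encodes BubR1, the checkpoint protein that binds and restrains CDC20. It had 38.1, 34.0 and 44.9 CPM in LPS_ABS libraries, 54.2, 53.6 and 47.9 CPM in LPS libraries and 77.7, 76.5 and 77.1 CPM in controls. Every control lay above every LPS library, and every LPS library above every LPS_ABS library. The log2 fold change of BUB1B in LPS libraries against controls was -0.57 ± 0.13 (SE; adjusted p = 0.0128) and -0.52 ± 0.11 (adjusted p = 0.00625) after the GC correction. The call before the correction was lost when 1 library was left out, with adjusted p = 0.0549, 0.0530 and 0.0523 without control 1, 2 or 3 and 0.0745 without LPS 3, while the fold change stayed between -0.58 and -0.52 in those fits. After the correction it held in all 9 fits with 1 library left out, with adjusted p from 0.00114 to 0.0388.

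After the GC correction 0 mitotic genes rose and 3 fell with LPS, a share of 9.38%, close to the 9.71% of all genes that fell, and 11.5% of all genes rose. At an unadjusted p under 0.05, 0 were higher in that fit. The 3 that fell were BUB1B, BUB1 and MAD2L1, all of the spindle checkpoint. BUB1 is a checkpoint kinase of the kinetochore, and MAD2L1 encodes MAD2, which binds CDC20. BUB1 had 72.0, 64.0 and 74.4 CPM in LPS_ABS libraries, 107, 92.7 and 86.5 CPM in LPS libraries and 129, 125 and 119 CPM in controls. MAD2L1 had 41.3, 34.6 and 28.0 CPM in LPS_ABS libraries, 54.3, 48.9 and 45.7 CPM in LPS libraries and 74.2, 60.0 and 66.8 CPM in controls. In both genes the 3 groups did not overlap, with LPS_ABS lowest and controls highest. With LPS against controls BUB1 had a log2 fold change of -0.38 ± 0.12 (SE; adjusted p = 0.0575) before the correction and -0.33 ± 0.10 (adjusted p = 0.0354) after it, and MAD2L1 of -0.43 ± 0.16 (SE; adjusted p = 0.0808) and -0.41 ± 0.11 (adjusted p = 0.023). The corrected call of BUB1 was lost without control 1, 2 or 3 or LPS 2 or 3 (adjusted p = 0.0765 to 0.153), and that of MAD2L1 without control 1 or 3 or LPS 1 or 3 (adjusted p = 0.0508 to 0.106). The 3 LPS libraries and the 3 controls did not overlap in 6 of the 32 genes (18.8%; 1 higher and 5 lower), against 42.6% of all genes tested.

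With LPS and ABS, against LPS alone, 3 mitotic genes rose and 11 fell, and those that fell were poor in GC. The 3 that rose were PLK1, AURKB and CDC20. The 11 that fell were all 4 checkpoint genes (BUB1, BUB1B, TTK and MAD2L1), the kinetochore genes CENPE and CENPF, the topoisomerase TOP2A, the spindle genes KIF11 and ASPM and the cytokinesis genes ECT2 and ANLN. Of all genes tested, 16.8% rose and 18.8% fell. The median log2 fold change of the 32 genes was -0.18, against 0.016 over all genes tested, and with total counts as the scaling 1 rose and 14 fell. Among genes under 45% GC, 11 of 18 mitotic genes fell (61.1%), against 46.0% of all such genes tested. Among genes of 50% GC or more, 3 of 6 rose, against 31.9% of all such genes. None of the 8 mitotic genes between 45 and 50% GC was called. The 2 groups did not overlap in 15 of the 32 genes (46.9%; 3 higher and 12 lower), against 46.2% of all genes.

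TOP2A, the topoisomerase that disentangles chromosomes before they part, fell furthest. It had 132, 70.7 and 61.9 CPM in LPS_ABS libraries, 224, 197 and 184 CPM in LPS libraries and 193, 153 and 179 CPM in controls. All 3 LPS_ABS libraries lay below every LPS library and every control, and LPS_ABS 1 was the highest of its group. Its log2 fold change with LPS_ABS against LPS was -1.19 ± 0.23 (SE; adjusted p = 0.0057), or 0.438 times the LPS level. PLK1, the Polo kinase needed for spindle assembly and cytokinesis, had 406, 367 and 359.7 CPM in LPS_ABS libraries, 247, 296 and 263 CPM in LPS libraries and 255, 282 and 227 CPM in controls. All 3 LPS_ABS libraries lay above all others, and its log2 fold change was 0.49 ± 0.12 (SE; adjusted p = 0.0111). ASPM had 22.9, 11.3 and 12.6 CPM in LPS_ABS libraries, 38.6, 27.4 and 27.8 CPM in LPS libraries and 29.1, 25.2 and 27.8 CPM in controls, with no overlap between LPS_ABS and the rest, and had a log2 fold change of -1.0 ± 0.24 (SE; adjusted p = 0.00987). These 3 calls, TOP2A, PLK1 and ASPM, held in all 9 fits with 1 library left out. The other 11 were lost in at least 1 of them. Without LPS_ABS 2 or without LPS 1, 5 calls were left, and BUB1, BUB1B, TTK, MAD2L1, CENPE, CENPF, KIF11, ECT2 and ANLN lost theirs (adjusted p = 0.0569 to 0.117 and 0.0600 to 0.163). Without LPS_ABS 3, 7 calls were left (those genes other than BUB1 and BUB1B lost theirs), and without LPS 3, 9 were left (AURKB, BUB1B, ECT2, ANLN and CDC20 lost theirs). BUB1B also lost its call without LPS 2 or control 1 or 2. Without LPS_ABS 1, CDK1, CCNA2 and NUF2 fell too. The call of CDC20 was lost without any 1 of 6 libraries, with adjusted p = 0.0594 to 0.149.

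After the GC correction, 0 mitotic genes rose and 1 fell with LPS_ABS against LPS, against 5.03% and 4.23% of all genes tested, and 1 was higher at an unadjusted p under 0.05. The gene that fell was TOP2A, with a log2 fold change of -0.61 ± 0.15 (adjusted p = 0.0293). The corrected call of TOP2A was lost without LPS_ABS 2 or 3 or any 1 of the 3 LPS libraries, with adjusted p = 0.0674 to 0.0931. The median log2 fold change of the 32 genes became 0.042. Across the 32 genes Spearman's rho between log2 fold change and GC content was 0.90 before the correction and 0.33 after it, against 0.69 and 0.0017 across all genes tested. Genes share the 9 libraries and are not independent replicates. Of the genes called before the correction, MAD2L1, CENPE and CDC20 changed sign, to log2 fold changes of 0.094, 0.067 and -0.090. A further 8 genes, called in neither fit, also changed sign.

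**Figure D2:**
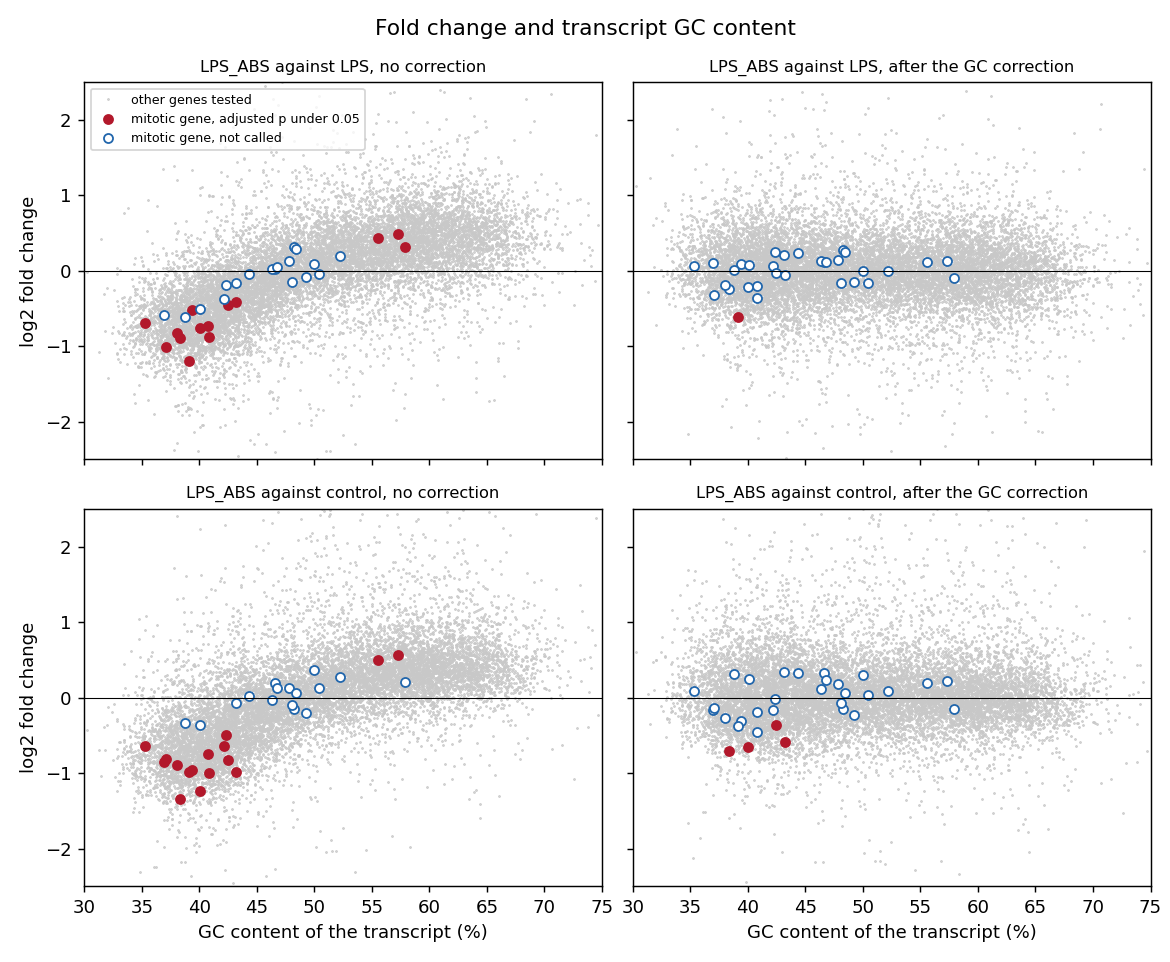
Log2 fold change with LPS_ABS against the GC content of the transcript (%), for LPS_ABS against LPS (top) and LPS_ABS against control (bottom), before (left) and after (right) the GC correction. Grey points are the other genes tested, filled red points mitotic genes with an adjusted p under 0.05 and open blue points the other mitotic genes; before the correction the 32 genes lie along the trend of all genes, and after it 1 (top) and 4 (bottom) remain called.

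With LPS and ABS, against controls, 14 mitotic genes fell and 2 rose. The 2 that rose were PLK1 and AURKB. The 14 that fell were the 11 genes that fell against LPS and CDK1, CCNA2 and KIF23. Of all genes tested 14.8% rose and 19.0% fell, and the median of the 32 genes was -0.27, against 0.050 of all genes. Under 45% GC, 14 of 18 mitotic genes fell (77.8%), against 47.8% of all such genes tested, and at 50% GC or more 2 of 6 rose (33.3%), against 26.9%. The groups did not overlap in 21 of the 32 genes (65.6%; 6 higher and 15 lower), against 50.0% of all genes. Both LPS_ABS comparisons share the LPS_ABS libraries, and both comparisons with controls share the controls.

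KIF11, the motor that pushes spindle poles apart, fell furthest against controls. It had 22.6, 12.6 and 11.5 CPM in LPS_ABS libraries, 36.2, 25.0 and 24.9 CPM in LPS libraries and 40.0, 34.0 and 44.7 CPM in controls. LPS_ABS lay below both other groups, which overlapped each other. Its log2 fold change with LPS_ABS against controls was -1.35 ± 0.25 (SE; adjusted p = 0.00249), or 0.393 times the control level, and -0.71 ± 0.16 (adjusted p = 0.0137) after the GC correction. ANLN, which encodes anillin, a scaffold of the contractile ring, had 45.4, 21.7 and 23.9 CPM in LPS_ABS libraries, 57.6, 48.5 and 47.6 CPM in LPS libraries and 79.1, 66.8 and 68.8 CPM in controls. The 3 groups did not overlap, with LPS between the other two, and LPS_ABS 1 was again the highest of its group. ANLN had a log2 fold change of -1.24 ± 0.23 (SE; adjusted p = 0.00287) against controls before the correction and -0.66 ± 0.16 (adjusted p = 0.019) after it. BUB1B had a log2 fold change of -0.98 ± 0.13 (SE; adjusted p = 0.000647) and -0.58 ± 0.11 (adjusted p = 0.00637), and BUB1 of -0.82 ± 0.12 (SE; adjusted p = 0.00107) and -0.36 ± 0.10 (adjusted p = 0.0366).

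These 4 genes, BUB1, BUB1B, KIF11 and ANLN, were the mitotic genes that fell against controls after the GC correction (12.5%, against 5.05% of all genes), and 0 rose, against 7.96% of all genes (3 were higher at an unadjusted p under 0.05). The corrected median was -0.046. BUB1B kept its corrected call in all 9 fits with 1 library left out (adjusted p = 0.000795 to 0.0367). Without LPS_ABS 2 or without control 3 it was the one corrected call left, and KIF11 had adjusted p = 0.0713 and 0.0586 and ANLN 0.0854 and 0.0501. ANLN also lost its corrected call without control 1 (adjusted p = 0.0881), and BUB1 without LPS_ABS 1 or 2, any control or LPS 3 (adjusted p = 0.0549 to 0.147). Without LPS_ABS 3, 5 genes rose after the correction: CCNB1, CCNB2, NDC80, NUF2 and UBE2C (log2 fold changes from 0.39 to 0.51). Without LPS_ABS 1, CCNB1 and TPX2 rose (0.42 and 0.35) and CENPF, TOP2A and ECT2 joined those that fell (-0.73, -0.59 and -0.50). Before the correction, 9 of the 16 calls held in all 9 fits (CCNA2, AURKB, PLK1, BUB1, BUB1B, MAD2L1, TOP2A, KIF11 and ANLN). The other 7 lost theirs in at least 1, with 10 calls left without control 1 (CDK1, TTK, CENPE, ASPM, KIF23 and ECT2 lost) and 11 without LPS_ABS 2 (TTK, CENPE, CENPF, ASPM and ECT2 lost). Without control 2 or 3, 12 and 13 were left, and CENPE also lost its call without LPS_ABS 3, LPS 2 or LPS 3. Without LPS_ABS 3, ASPM and ECT2 lost theirs and BIRC5 and UBE2C rose.

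**Figure D3:**
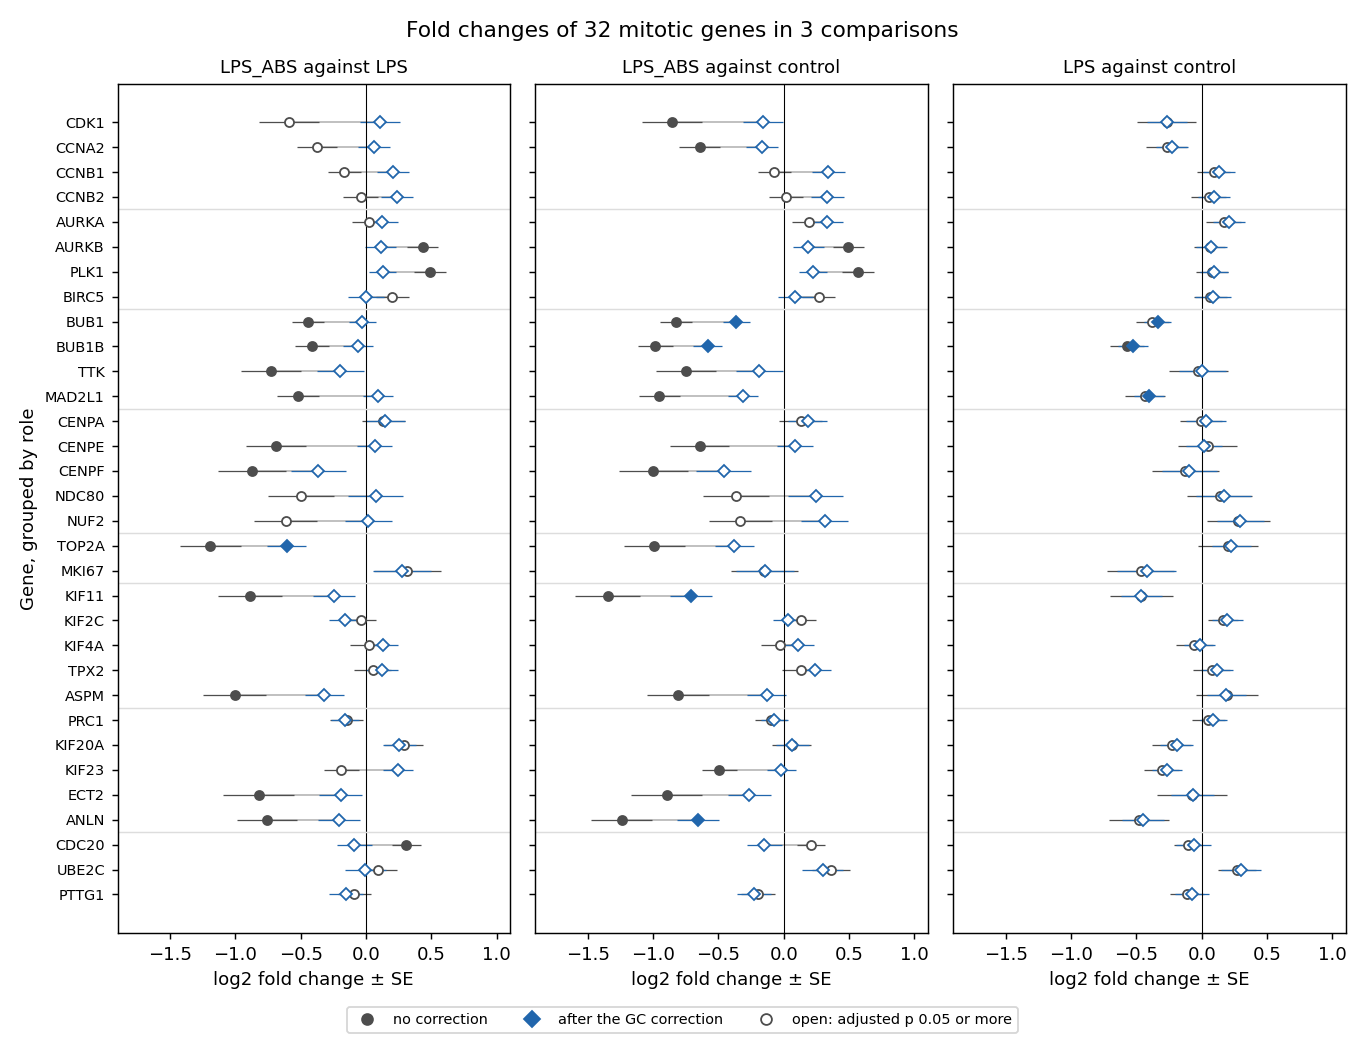
Log2 fold change ± SE of the 32 mitotic genes, grouped by role, for LPS_ABS against LPS (left), LPS_ABS against control (middle) and LPS against control (right). Grey circles are values without and blue diamonds values with the GC correction, filled at an adjusted p under 0.05. Among others, BUB1, BUB1B, MAD2L1, KIF11 and ANLN lie left of 0 in both comparisons with controls under both fits.

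By role, CDK1, the kinase that starts mitosis, and CCNA2 fell with LPS_ABS against controls before the correction. The main fit was edgeR over all 9 libraries with TMM scaling, a filter on low counts and no replicate numbers in the model. It called a gene of this role in no other comparison, and in none after the GC correction. CDK1 and CCNA2 have 37.0% and 42.2% GC, CCNB1 and CCNB2 43.2% and 44.3%. CDK1 had 66.7, 62.6 and 32.1 CPM in LPS_ABS libraries, 96.0, 75 and 71.6 CPM in LPS libraries and 106, 96.9 and 88.5 CPM in controls, with LPS_ABS below both other groups. CCNA2, the cyclin that acts in S phase and G2, had 93.7, 73.2 and 69.8 CPM in LPS_ABS libraries, 121, 96.5 and 89.7 CPM in LPS libraries and 134, 126 and 110.3 CPM in controls, where LPS_ABS 1 lay within the LPS range. Against controls CDK1 had a log2 fold change of -0.85 ± 0.23 (SE; adjusted p = 0.0142) and -0.16 ± 0.15 (adjusted p = 0.528) after the correction, and CCNA2 of -0.64 ± 0.15 (SE; adjusted p = 0.00886) and -0.16 ± 0.12 (adjusted p = 0.414). The call of CDK1 was lost without control 1 (adjusted p = 0.0545). Against LPS the log2 fold change of CDK1 was -0.59 ± 0.23 (SE; adjusted p = 0.0601) and that of CCNA2 -0.38 ± 0.15 (SE; adjusted p = 0.0743), neither called in the main fit. After the correction these were 0.11 ± 0.15 (adjusted p = 0.683) and 0.065 ± 0.12 (adjusted p = 0.761). Without the correction, DESeq2, limma-voom and edgeR with no low-count filter called CDK1 lower. EdgeR with total counts as scaling or a replicate block called both lower. The B-type cyclins, which switch CDK1 on for mitosis, passed no test in the 3 comparisons. A gene is said to pass no test where the main fit called it neither before nor after the correction. CCNB1 had 180.0, 218 and 186 CPM in LPS_ABS libraries, 251, 211 and 193 CPM in LPS libraries and 199.6, 210.4 and 204 CPM in controls. CCNB2 had 85.7, 106 and 89.0 CPM in LPS_ABS libraries, 111, 87.5 and 88.8 CPM in LPS libraries and 89.2, 93.0 and 94.7 CPM in controls. In both the 3 groups overlapped, and their log2 fold changes against controls were -0.073 and 0.017 before the correction and 0.34 and 0.33 after it (adjusted p = 0.0863 and 0.0996).

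The Aurora and Polo kinases and the chromosomal passenger complex held the 2 genes that rose in both LPS_ABS comparisons. AURKB, the kinase of the passenger complex, which corrects wrong attachments, had 44.9, 45.9 and 45.1 CPM in LPS_ABS libraries, 35.1, 34.2 and 31.2 CPM in LPS libraries and 32.8, 31.2 and 32.5 CPM in controls. All LPS_ABS libraries lay above all others, with log2 fold changes of 0.43 ± 0.12 (SE; adjusted p = 0.0159) against LPS and 0.49 ± 0.12 (SE; adjusted p = 0.00837) against controls. After the correction these were 0.11 ± 0.12 (adjusted p = 0.552) and 0.19 ± 0.12 (adjusted p = 0.322). The call against LPS was lost without LPS 3 (adjusted p = 0.0693). PLK1 had a log2 fold change of 0.57 ± 0.12 (SE; adjusted p = 0.00496) against controls, and of 0.13 ± 0.11 (adjusted p = 0.452) against LPS and 0.22 ± 0.11 (adjusted p = 0.187) against controls after the correction. AURKA, the kinase of the spindle poles, had 109, 132 and 125 CPM in LPS_ABS libraries, 138, 117 and 104 CPM in LPS libraries and 106, 101 and 113 CPM in controls. BIRC5, which encodes survivin, a passenger subunit, had 249, 237 and 196 CPM in LPS_ABS libraries, 221, 178 and 195 CPM in LPS libraries and 183, 195 and 189 CPM in controls. Neither passed a test in a comparison of 3 libraries with 3, although the LPS_ABS libraries of BIRC5 did not overlap the controls. AURKB and PLK1 have 55.6% and 57.3% GC, AURKA and BIRC5 46.6% and 52.2%.

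The spindle checkpoint was the role in which all 4 genes fell in both LPS_ABS comparisons before the correction. All 4 have 39.4 to 43.2% GC. Among mitotic genes under 45% GC, 61.1% fell against LPS and 77.8% against controls, and among all such genes tested 46.0% and 47.8%. TTK, the kinase MPS1 that starts checkpoint signalling, had 41.5, 33.4 and 20.5 CPM in LPS_ABS libraries, 65.9, 46.1 and 45.7 CPM in LPS libraries and 60.5, 51.4 and 48.7 CPM in controls. LPS_ABS lay below both other groups, and LPS overlapped controls. TTK had a log2 fold change of -0.73 ± 0.23 (SE; adjusted p = 0.0288) against LPS and -0.75 ± 0.23 (SE; adjusted p = 0.0254) against controls, and of -0.19 and -0.19 after the correction (adjusted p = 0.499 and 0.53). Against LPS, BUB1 had a log2 fold change of -0.45 ± 0.12 (SE; adjusted p = 0.0173), BUB1B of -0.41 ± 0.13 (SE; adjusted p = 0.0293) and MAD2L1 of -0.52 ± 0.16 (SE; adjusted p = 0.0242). After the correction these became -0.027, -0.059 and 0.094, none called. MAD2L1 had a log2 fold change of -0.95 ± 0.16 (SE; adjusted p = 0.00169) against controls and of -0.31 ± 0.11 (adjusted p = 0.088) after the correction.

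Of the 5 kinetochore and centromere genes, 2 fell in each LPS_ABS comparison before the correction and 0 after it. CENPE, a motor that carries chromosomes to the spindle middle, had 22.1, 14.7 and 12 CPM in LPS_ABS libraries, 34.1, 23.2 and 21.3 CPM in LPS libraries and 26.1, 23.6 and 26.4 CPM in controls, with LPS_ABS below every control and overlapping LPS. CENPF, a large kinetochore protein, had 46.1, 23.1 and 23.7 CPM in LPS_ABS libraries, 65.2, 54.7 and 50.1 CPM in LPS libraries and 57.7, 47.9 and 79.9 CPM in controls, where LPS_ABS 1 was the highest of its group and all 3 lay below both other groups. CENPE had a log2 fold change of -0.69 ± 0.23 (SE; adjusted p = 0.034) against LPS and -0.64 ± 0.23 (SE; adjusted p = 0.0453) against controls, and CENPF of -0.87 ± 0.26 (SE; adjusted p = 0.0232) and -1.0 ± 0.26 (SE; adjusted p = 0.013). After the correction CENPE stood at 0.067 and 0.084 and CENPF at -0.37 and -0.46. NDC80, part of the microtubule-binding complex of the kinetochore, had 34.5, 35.4 and 16.5 CPM in LPS_ABS libraries, 49.1, 38.3 and 34.7 CPM in LPS libraries and 43.0, 37.3 and 30.7 CPM in controls. Here LPS_ABS 3 alone stood low, LPS_ABS 1 and 2 lay near the others, and the main fit did not call NDC80. With the replicate number as a block, edgeR called it lower against LPS before the correction. NUF2, its partner, ranged from 17.7 to 37.0 CPM with LPS_ABS, 38.3 to 56.2 CPM with LPS and 32.7 to 41.3 CPM in controls, with LPS_ABS 3 again lowest. CENPA, the histone H3 variant that marks centromeres, had 29.9, 32.4 and 30.1 CPM in LPS_ABS libraries, 35.8, 23.9 and 24.5 CPM in LPS libraries and 28.8, 26.1 and 29.7 CPM in controls. The main fit called neither NUF2 nor CENPA. NUF2 had a log2 fold change of -0.61 ± 0.24 (SE; adjusted p = 0.0637) with LPS_ABS against LPS and of 0.018 ± 0.18 (adjusted p = 0.959) after the correction. DESeq2 and limma-voom called it lower without the correction, as did edgeR with total counts, no low-count filter or a replicate block.

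MKI67, whose protein Ki-67 coats mitotic chromosomes and serves as a marker of cycling cells, had 244, 221 and 439 CPM in LPS_ABS libraries, 267, 253 and 207 CPM in LPS libraries and 280.4, 266 and 458 CPM in controls. LPS_ABS 3 and control 3 stood well above the other 7 libraries, and the groups overlapped. MKI67 passed no test, with log2 fold changes of 0.32 ± 0.26 (SE; adjusted p = 0.354) against LPS, -0.15 ± 0.26 (SE; adjusted p = 0.665) for LPS_ABS against controls and -0.47 ± 0.26 (SE; adjusted p = 0.252) for LPS against controls. After the correction these were 0.28, -0.15 and -0.42 (adjusted p = 0.436, 0.715 and 0.206). TOP2A, the other gene of chromosome structure, had a log2 fold change of -0.99 ± 0.23 (SE; adjusted p = 0.00787) with LPS_ABS against controls and of -0.38 ± 0.15 (adjusted p = 0.114) after the correction.

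**Figure D4:**
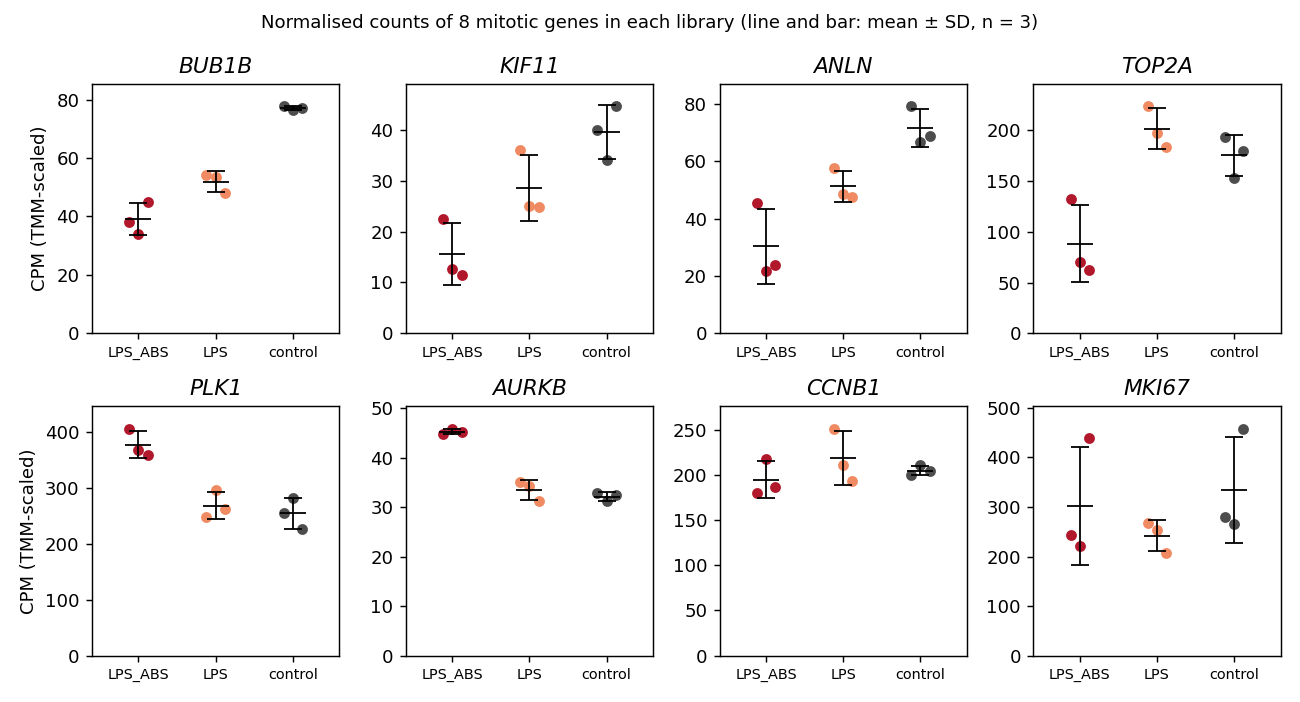
CPM (TMM-scaled counts) of 8 mitotic genes in each library, with the mean and SD of the 3 libraries of each group, LPS_ABS left, LPS middle and control right. BUB1B falls in steps with no overlap, PLK1 and AURKB are higher in all LPS_ABS libraries, CCNB1 overlaps in all groups, and MKI67 has 1 high library each in LPS_ABS and control.

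Among the 5 spindle motors and assembly factors, KIF11 and ASPM fell in both LPS_ABS comparisons before the correction. KIF11 had a log2 fold change of -0.88 ± 0.25 (SE; adjusted p = 0.0176) against LPS and of -0.25 ± 0.16 (adjusted p = 0.332) after the correction. ASPM had a log2 fold change of -0.81 ± 0.24 (SE; adjusted p = 0.0222) against controls, and of -0.32 and -0.13 against LPS and controls after the correction (adjusted p = 0.181 and 0.611). TPX2, which activates Aurora A on the spindle, had 186, 253 and 265 CPM in LPS_ABS libraries, 250.4, 224 and 204 CPM in LPS libraries and 208, 211 and 225 CPM in controls, with all groups overlapping. KIF2C, a motor that takes microtubules apart, and KIF4A, a chromosome motor, ranged from 229 to 297 CPM and from 54.2 to 74.8 CPM over the 9 libraries. TPX2, KIF2C and KIF4A passed no test, and their log2 fold changes lay between -0.057 and 0.16 before the correction.

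Of the 5 cytokinesis genes, ECT2 and ANLN fell against LPS, and ECT2, ANLN and KIF23 against controls, before the correction. ECT2, which switches on RhoA at the cell equator, had 19.8, 10.2 and 8.08 CPM in LPS_ABS libraries, 26.5, 18.6 and 22.0 CPM in LPS libraries and 25.6, 23.2 and 21.9 CPM in controls, where LPS_ABS 1 lay within the LPS range. KIF23, a subunit of the centralspindlin complex of the midzone, had 26.6, 26.4 and 27.7 CPM in LPS_ABS libraries, 35.6, 28.2 and 28.0 CPM in LPS libraries and 38.7, 37.7 and 37.3 CPM in controls, with no overlap between the 3 groups. ECT2 had a log2 fold change of -0.82 ± 0.27 (SE; adjusted p = 0.034) against LPS and -0.90 ± 0.27 (SE; adjusted p = 0.0245) against controls, and KIF23 of -0.49 ± 0.13 (SE; adjusted p = 0.0145) against controls. After the correction ECT2 stood at -0.19 and -0.26 and KIF23 at -0.019, and none was called. ANLN had a log2 fold change of -0.76 ± 0.23 (SE; adjusted p = 0.0258) against LPS and -0.21 ± 0.16 (adjusted p = 0.415) after the correction. KIF20A, a midzone motor, had 78.1, 94.1 and 105 CPM in LPS_ABS libraries, 89.7, 73.7 and 63.7 CPM in LPS libraries and 88.6, 87.9 and 89.6 CPM in controls. PRC1, which bundles midzone microtubules, ranged from 148 to 191 CPM. KIF20A and PRC1 passed no test.

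CDC20 itself had 1366, 1163 and 1198 CPM in LPS_ABS libraries, 1103, 983 and 919 CPM in LPS libraries and 1084, 1108 and 1036 CPM in controls. The LPS_ABS libraries lay above all others, with log2 fold changes of 0.31 ± 0.11 (SE; adjusted p = 0.0406) against LPS and 0.21 ± 0.11 (SE; adjusted p = 0.148) against controls. After the correction these were -0.090 ± 0.13 (adjusted p = 0.689) and -0.15 ± 0.13 (adjusted p = 0.503). UBE2C, the enzyme that starts ubiquitin chains for the anaphase-promoting complex, had 95.5, 92.6 and 68.5 CPM in LPS_ABS libraries, 89.7, 72.1 and 78.3 CPM in LPS libraries and 67.6, 66.0 and 65.8 CPM in controls. The controls lay below both other groups, and the log2 fold changes against controls, 0.36 ± 0.15 (SE; adjusted p = 0.0693) with LPS_ABS and 0.27 ± 0.15 (SE; adjusted p = 0.245) with LPS, passed no test. After the correction these were 0.30 and 0.30 (adjusted p = 0.235 and 0.198). PTTG1, which encodes securin, had 114, 114 and 97.8 CPM in LPS_ABS libraries, 132, 105 and 109 CPM in LPS libraries and 117, 123 and 135 CPM in controls. It passed no test, although all 3 LPS_ABS libraries lay below the controls.

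Other genes of cell division were read from 4 further lists. Their counts stand beside these shares of all genes tested: 7.71% rose and 7.19% fell with LPS against controls, 16.8% and 18.8% with LPS_ABS against LPS, and 14.8% and 19.0% with LPS_ABS against controls. After the correction the shares were 11.5% and 9.71%, 5.03% and 4.23%, and 7.96% and 5.05%. Of 52 other mitotic genes, 0 rose (1 at an unadjusted p under 0.05) and 5 fell (9.62%) with LPS against controls, led by CENPN (-0.61), SKA3 (-0.58), CENPI (-0.95) and ZWINT (-0.51), all of the kinetochore; after the correction 1 rose and 7 fell. With LPS_ABS against LPS 11 rose (21.2%) and 14 fell (26.9%), led by ESPL1, which encodes separase (0.97), SPC24 (0.71), TACC3 (0.53) and the condensin subunit NCAPG (-0.87); after the correction 5 rose and 0 fell (2 at an unadjusted p under 0.05). Against controls 7 rose (13.5%) and 22 fell (42.3%) with LPS_ABS, led by NUSAP1 (-0.98), SMC2 (-1.03), NCAPG (-0.97) and CEP55 (-0.87); after the correction 3 rose and 2 fell. The value after each gene name is its log2 fold change before the correction. Medians of this list were -0.26 with LPS_ABS against LPS and -0.43 against controls before the correction, and 0.099 and -0.069 after it.

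The factors that drive these promoters were among 21 regulators of G2 and mitosis. MYBL2, which joins MuvB at CHR promoters, had 957, 721 and 798 CPM in LPS_ABS libraries, 401, 444 and 429 CPM in LPS libraries and 696, 717 and 646 CPM in controls. All LPS libraries lay below all others. MYBL2 fell with LPS against controls, with a log2 fold change of -0.69 ± 0.12 (SE; adjusted p = 0.00284), and rose with LPS_ABS against LPS, at 0.96 ± 0.12 (SE; adjusted p = 0.00241). After the correction it was called in both again, at -0.65 ± 0.11 (adjusted p = 0.00181) and 0.52 ± 0.11 (adjusted p = 0.0182). FOXM1 had 129, 138 and 172 CPM in LPS_ABS libraries, 92.5, 112 and 101 CPM in LPS libraries and 104, 106 and 114 CPM in controls. It rose by 0.52 ± 0.14 (SE; adjusted p = 0.0133) with LPS_ABS against LPS and by 0.44 ± 0.14 (SE; adjusted p = 0.0268) against controls, and after the correction stood at 0.21 ± 0.12 (adjusted p = 0.261) and 0.13 ± 0.12 (adjusted p = 0.518).

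Of the 21 regulators, 0 rose (2 at an unadjusted p under 0.05) and 4 fell (19.0%) with LPS against controls (MYBL2, CCNF, CDKN3 and CDC25A), and after the correction 2 rose and 4 fell. With LPS_ABS against LPS 6 rose (28.6%) and 4 fell (19.0%), led by MYBL2, CCNF and PKMYT1, which were higher, and LIN9, a MuvB subunit, which was lower (-1.11); after the correction 4 rose and 0 fell (1 at an unadjusted p under 0.05). Against controls 6 rose (28.6%) and 3 fell (14.3%), led by PKMYT1 and CDC25B, which were higher, and RBL1 and CDKN3, which were lower; after the correction 1 rose and 2 fell. CDKN1A, the CDK inhibitor p21, was at 274, 194 and 138 CPM with LPS_ABS, 156, 166 and 183 with LPS and 136, 136 and 117 in controls, and rose with LPS_ABS against controls by 0.64 ± 0.20 (SE; adjusted p = 0.0265), which became 0.28 ± 0.18 (adjusted p = 0.351). WEE1, the kinase that holds CDK1 inactive, was called after the correction alone, at 0.78 ± 0.17 (adjusted p = 0.0178) against LPS and 0.66 ± 0.17 (adjusted p = 0.0216) against controls. CDC25C, the phosphatase that frees CDK1, passed no test (15.5 to 27.2 CPM). The median of the 21 regulators before the correction was -0.072 with LPS, 0.14 with LPS_ABS against LPS and -0.0014 with LPS_ABS against controls.

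Of 17 genes of the anaphase-promoting complex and its partners (medians -0.17, -0.16 and -0.15 in the 3 comparisons), 1 rose (5.88%) and 2 fell (11.8%) with LPS against controls (ANAPC16 higher, CDC26 and CDC23 lower), and after the correction 1 rose and 4 fell. With LPS_ABS against LPS 2 rose (11.8%) and 4 fell (23.5%), led by ANAPC2 and FZR1, which were higher, and ANAPC4 and ANAPC16, which were lower; against controls 2 rose (11.8%) and 5 fell (29.4%), led by UBE2S, which was higher, and ANAPC4, CDC26 and CDC23, which were lower. After the correction 0 rose and 0 fell against LPS, and 0 rose and 1 fell against controls. At an unadjusted p under 0.05, 3 were higher and 1 lower against LPS in that fit, and 1 was higher against controls. The corrected medians were -0.17, -0.0021 and -0.13 in the 3 comparisons.

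DNA replication genes, which act in the phase before, moved with LPS. Of 41 genes, 1 rose (2.44%) and 22 fell (53.7%) with LPS against controls, with a median log2 fold change of -0.50, against a median of -0.015 for the 32 mitotic genes. The leading genes were CCNE1 (-0.94), GINS1 (-0.93), MCM4 (-0.88) and RRM2 (-0.89). With LPS_ABS against LPS 22 rose (53.7%) and 0 fell (6 at an unadjusted p under 0.05), led by GINS4 (0.86), MCM2 (0.77), LIG1 (0.79) and MCM7 (0.57). The median was then 0.43. With LPS_ABS against controls 4 rose (9.76%) and 12 fell (29.3%), with a median of -0.23, among them CCNE2 (-1.40), RRM1 (-0.88) and, in the other direction, CDT1 (0.91). After the correction 1 rose and 27 fell with LPS, 12 rose and 0 fell with LPS_ABS against LPS (0 also at an unadjusted p under 0.05), and 1 rose and 7 fell with LPS_ABS against controls. The corrected medians of the replication genes were -0.45, 0.28 and -0.14 in these comparisons. The replication and mitotic lists were not tested against each other.

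Near-identical copies took few counts. KIF4B, a copy of KIF4A, had 11 to 74 counts per library, PTTG2, a copy of PTTG1, 0 to 4, and the read-through gene BUB1B-PAK6 0 to 6. In GENCODE release 29, exons of 12 of the 32 genes overlap an exon of another gene, 10 of them on the opposite strand, and 8 overlap a gene of the deposited table. Examples are CCNA2 with EXOSC9, NUF2 with RGS5, KIF20A with BRD8 and CDC23, PLK1 with ERN2, ANLN with KIAA0895 and, on the same strand, BUB1B with BUB1B-PAK6. The strand setting of the counting was not given, so reads in those stretches cannot be told apart.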

How the data were processed

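Raw read counts and, in a second table, FPKM (the same counts divided by a gene length and the library total) were deposited by the authors for 16222 genes. The submitters' processing notes name fastp, HISAT2, HTSeq, R 3.2.0 and DESeq2 without roles. The labels' protocols name both a TruSeq stranded kit and VAHTS Universal V5, without saying which was used. Genome build, annotation and strand setting are not given in the sources used here.

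Libraries were grouped by treatment label, and columns were matched by title. Counts were filtered with filterByExpr (12970 genes, 99.985% of counts), scaled by TMM and tested with edgeR 4.0.16 in R 4.3.3 (quasi-likelihood F test on all 9 libraries, 6 residual degrees of freedom, Benjamini-Hochberg over all genes tested, called under 0.05). The spread between libraries beyond counting error was 18.4% (common coefficient of variation). Fold changes are log2, the first-named group over the one it is set against. The GC correction fitted, per library, a lowess (span 0.3) of log2 CPM (prior count 0.5, relative to the mean over libraries) on GC content, taken from each gene's longest coding transcript in GENCODE release 29 and found for 16115 genes (99.34%). The fit was tested on data simulated with and without a GC trend, which was the trend fitted to these libraries. That test cannot show whether the correction also removes real differences that follow GC content.

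The members and lists were chosen with earlier results of these data known. The rule for names took 24 landmark members, any other member called, up to 4 genes with the smallest adjusted p per further list and comparison, and 6 regulators; some genes it took are not reported here. Alternatives were another scaling, filter or test (DESeq2 1.42.0, limma 3.58.1 voom), 2 groups alone, the replicate number as a block, GC and length together, and leaving out each library. Within groups, no libraries were duplicates (lowest chi-square per degree of freedom 7.23). Markers of other cell types were read from lists of 5 to 8 genes each. Of these, 4 of 7 T cell, 2 of 8 fibroblast and 2 of 5 chondrocyte markers were absent from the deposited table, as was 1 of 5 each for B cells and endothelium.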

Additional observations from a re-analysis of the deposited data

How the results depend on the processing

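Under the scaling of DESeq2, a filter at 1 CPM in 3 libraries, DESeq2 and limma-voom no call of a mitotic gene was lost and no called gene changed direction. With LPS against controls, DESeq2 and limma-voom each called 2 genes lower (BUB1 joined BUB1B), a fit of the 2 groups alone called 4, and the GC correction 3. With LPS_ABS against LPS, DESeq2, limma-voom and a fit with no filter on low counts also called CDK1 and NUF2 lower, so that 13 fell. With no filter CDC20 lost its call. In that comparison 1 gene rose with total counts as scaling (AURKB and CDC20 lost their calls, and with CDK1, CCNA2 and NUF2 14 fell) and 1 in a fit of the 2 groups alone (AURKB and CDC20 lost theirs, as did BUB1B, CENPE and ECT2, which fell). After the GC correction 0 rose and 1 fell, with a median of 0.042. Of the genes called before it, MAD2L1, CENPE and CDC20 changed sign (0.094, 0.067 and -0.090), as did 8 genes called in neither fit. With LPS_ABS against controls the median was -0.40 with total counts. After the GC correction 0 rose and 4 fell, and the median was -0.046. Of the genes called before it, CENPE changed sign (0.084), as did 5 genes called in neither fit. Correcting for GC content and transcript length together, chosen after seeing the data, made 1 gene (UBE2C) rise in that comparison. The cause of these changes was not tested.

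With 1 library left out, the number lower with LPS against controls ranged from 0 to 4, and the median from -0.19 to 0.071. With LPS_ABS against LPS, 1 to 3 rose and 2 to 14 fell. With LPS_ABS against controls, 2 to 4 rose and 8 to 14 fell. After the GC correction 1 to 5 fell with LPS, with a median of -0.12 to 0.095, 0 to 4 fell with LPS_ABS against LPS, and against controls 0 to 5 rose and 1 to 6 fell. The members had at least 8.08 CPM in every library.

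Whether replicate numbers pair the samples was not settled. Over 9 same-numbered pairs the correlation of deviations from the group means ran from -0.026 to 0.17, and 3 exceeded 0.1. Over 18 differently numbered pairs it ran from -0.17 to 0.14, and 1 exceeded 0.1. With the number as a replicate block, 1, 18 and 16 genes were called for LPS against controls, LPS_ABS against LPS and LPS_ABS against controls, and with the block and the GC correction 4, 1 and 3. The block added CDK1, CCNA2, NDC80 and NUF2, all lower, with LPS_ABS against LPS. With the block and the correction BUB1 lost its corrected call in both comparisons with controls, and KIF11 and ANLN were called with LPS.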
